A study of Mus musculus with 4 samples.

Results

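The regions described here are peaks of H3K4me3, a histone mark of promoters, at long noncoding RNA (lncRNA) genes of mouse macrophages, away from the ends of protein-coding genes. A peak was included if it lay within 1000 bp of either end of an mm10 RefSeq gene of lncRNA type and more than 5000 bp from every end of a protein-coding gene. The rule took 1153 of 28505 H3K4me3 peaks in Sun-/- macrophages (4.04%) and 1364 of 31398 in wild-type macrophages (4.34%). The peaks came from chromatin immunoprecipitation with sequencing (ChIP-seq) of thioglycollate-elicited peritoneal macrophages, cells drawn to the peritoneum by an irritant broth and then cultured. The mice were C57BL/6 animals of 8 weeks. The mutant group is labelled Sun-/- and the other wild type, and the labels do not say which Sun gene is meant. Each genotype had 1 H3K4me3 library (antibody ab8580) and 1 H3K9me3 library (antibody ab8898). No replicate stands behind any difference between genotypes, so no p-value was computed, and every interval below is a 95% interval that covers counting error only. Reads were reported as tags without molecular identifiers, which are not independent molecules.

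LncRNAs are transcripts without a protein product that are made by RNA polymerase II and are often capped, spliced and polyadenylated like messenger RNAs. H3K4me3 is laid down around the start sites of such transcripts by COMPASS-type methyltransferases, which are drawn to CpG-rich DNA and to the transcribing polymerase. In macrophages, lncRNAs are known as regulators of inflammatory genes and of cell survival, as hosts of microRNAs and small nucleolar RNAs (snoRNAs), and as nuclear scaffolds. SUN proteins span the inner nuclear membrane and belong to the complex that links the nucleus to the cytoskeleton.

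After removal of duplicate tags the H3K4me3 libraries held 26748289 tags in Sun-/- cells and 29681491 in wild-type cells, and the H3K9me3 libraries held 28586946 tags in Sun-/- cells and 27727997 in wild-type cells. Of 12 macrophage marker genes, 11 had an H3K4me3 peak at an end in either genotype, and Msr1 had one in neither. Markers of other cells were marked less completely. Of 6 genes in each list, 3 B cell and 3 T and NK cell markers had a peak in both genotypes, and 1 eosinophil and mast cell marker did. Mesothelial and fibroblast markers had a peak at 2 of 6 genes in Sun-/- cells and 4 of 6 in wild-type cells, with 347 and 654 tags summed. Neutrophil markers had a peak at 2 of 6 genes in Sun-/- cells, with 77 tags summed, and at 0 of 6 in wild-type cells. The part that other cells take in the lncRNA peaks was not tested.

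Promoter sequences show how unlike the marked lncRNA starts are. The 7 below run from 250 bp before to 50 bp after the RefSeq start (GRCm38.p6, the assembly of mm10), 5′ to 3′ on the gene's strand, with each CpG in capitals. The first 4 belong to genes marked in both genotypes, from the most CpG-rich start with high tag counts to a CpG-poor one. Dnm3os was marked in Sun-/- cells alone, Gm32822 in wild-type cells alone, and Mir155hg in neither.
Gm15327 promoter, chr13:111808888-111809187 (plus strand): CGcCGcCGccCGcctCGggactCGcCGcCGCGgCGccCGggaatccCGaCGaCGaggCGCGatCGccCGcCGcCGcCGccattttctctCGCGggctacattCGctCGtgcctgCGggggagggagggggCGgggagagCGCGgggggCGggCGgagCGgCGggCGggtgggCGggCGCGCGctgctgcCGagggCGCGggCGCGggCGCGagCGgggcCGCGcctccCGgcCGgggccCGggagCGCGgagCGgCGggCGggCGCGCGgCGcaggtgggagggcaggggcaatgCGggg
Dleu2 promoter, chr14:61682324-61682623 (minus strand): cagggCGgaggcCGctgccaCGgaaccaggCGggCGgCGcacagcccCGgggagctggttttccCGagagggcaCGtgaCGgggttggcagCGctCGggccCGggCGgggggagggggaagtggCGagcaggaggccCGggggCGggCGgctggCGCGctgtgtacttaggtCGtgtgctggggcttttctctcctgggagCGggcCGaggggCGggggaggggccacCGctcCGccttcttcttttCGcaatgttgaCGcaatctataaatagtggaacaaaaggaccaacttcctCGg
Snhg15 promoter, chr11:6528711-6529010 (minus strand): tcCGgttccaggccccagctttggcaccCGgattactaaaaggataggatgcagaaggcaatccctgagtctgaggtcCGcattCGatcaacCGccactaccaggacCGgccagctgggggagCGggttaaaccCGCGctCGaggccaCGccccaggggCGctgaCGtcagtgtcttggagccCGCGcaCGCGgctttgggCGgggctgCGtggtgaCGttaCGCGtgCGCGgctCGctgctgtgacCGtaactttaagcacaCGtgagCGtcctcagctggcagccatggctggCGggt
Morrbid promoter, chr2:128429302-128429601 (minus strand): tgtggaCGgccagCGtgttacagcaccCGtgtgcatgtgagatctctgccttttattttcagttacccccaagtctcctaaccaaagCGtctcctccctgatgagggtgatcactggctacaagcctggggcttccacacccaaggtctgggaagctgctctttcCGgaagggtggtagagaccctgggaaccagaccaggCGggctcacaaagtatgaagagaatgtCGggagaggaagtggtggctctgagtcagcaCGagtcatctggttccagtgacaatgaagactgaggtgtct
Dnm3os promoter, chr1:162217373-162217672 (plus strand): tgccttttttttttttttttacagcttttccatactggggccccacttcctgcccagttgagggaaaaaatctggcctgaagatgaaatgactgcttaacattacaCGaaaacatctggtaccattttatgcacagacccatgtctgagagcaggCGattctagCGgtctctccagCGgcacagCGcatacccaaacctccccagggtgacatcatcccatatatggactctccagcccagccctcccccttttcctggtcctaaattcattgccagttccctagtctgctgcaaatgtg
Gm32822 promoter, chr17:56469183-56469482 (plus strand): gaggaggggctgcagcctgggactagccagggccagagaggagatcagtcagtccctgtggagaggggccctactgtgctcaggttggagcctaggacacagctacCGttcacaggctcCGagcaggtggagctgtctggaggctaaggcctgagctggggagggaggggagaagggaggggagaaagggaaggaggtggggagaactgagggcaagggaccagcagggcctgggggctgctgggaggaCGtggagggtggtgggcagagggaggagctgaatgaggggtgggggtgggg
Mir155hg promoter, chr16:84712773-84713072 (plus strand): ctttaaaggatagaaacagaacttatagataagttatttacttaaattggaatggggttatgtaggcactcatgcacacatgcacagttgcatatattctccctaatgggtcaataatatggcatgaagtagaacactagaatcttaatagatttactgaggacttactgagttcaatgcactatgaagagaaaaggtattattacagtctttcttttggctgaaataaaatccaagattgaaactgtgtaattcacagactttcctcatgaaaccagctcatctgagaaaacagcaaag
Gm15327, a lncRNA gene inside Map3k1, had 61 CpGs in these 300 bp, a ratio of observed to expected CpGs of 1.18, and H3K4me3 peaks of 654 tags in Sun-/- cells and 909 in wild-type cells. Dleu2, the host gene of miR-16-1, had 29 CpGs and peaks of 536 and 926 tags in Sun-/- and wild-type cells. Snhg15, a snoRNA host gene, also had 29 CpGs, with peaks of 156 tags in Sun-/- cells and 304 in wild-type cells. Morrbid, which in mouse myeloid cells restrains the pro-apoptotic gene Bcl2l11, had 8 CpGs, and its peaks held 370 tags in Sun-/- cells and 355 in wild-type cells. Of these starts, the one of Morrbid had fewer CpGs than that of Snhg15 and more tags in both genotypes. Dnm3os had 5 CpGs and a single Sun-/- peak of 35 tags over its start. Gm32822, inside Ptprs, had 3 CpGs and a wild-type peak of 323 tags, and the nearest Sun-/- peak lay 804 bp away with 828 tags. Mir155hg, which encodes the inflammation-induced miR-155, had 0 CpGs at its annotated start. Its nearest H3K4me3 peak was 9091 bp away with 167 tags in Sun-/- cells and 9139 bp away with 207 tags in wild-type cells. Whether transcription begins at the annotated start was not tested. The motif GAGGAAGT, of the type that the macrophage factor PU.1 binds, was present on either strand in the Dleu2 and Morrbid windows. It was present in 4.20% of the promoters marked in both genotypes, in 3.61% of the unmarked lncRNA promoters and in 3.20% of all 32851 promoters of the RefSeq table.

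MicroRNA hosts form a group of members whose products have known sequences. Among the member genes with a strand in the RefSeq promoter table, 17 held a hairpin of the RefSeq microRNA table within their annotated span and on their own strand, 33 hairpin genes with 59 mature sequences in all. Mir1a-1hg, Mir99ahg and Mir124a-1hg were not matched in this way and are not counted. Of these hosts, 13 had a peak in both genotypes, 2 in Sun-/- cells alone (Dnm3os and Gm10505) and 2 in wild-type cells alone (Gm13648 and Mirg), and at 15 a peak lay within 1000 bp of the host's 5′ end. The Mirg peak lay 461 bp beyond the 3′ end of the gene and 14938 bp from its 5′ end. The RefSeq mature sequences below are those of the hosts described here, with the seed (bases 2 to 8) in capitals.
miR-16-5p, in Dleu2: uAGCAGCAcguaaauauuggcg
miR-101a-3p, in E130102H24Rik: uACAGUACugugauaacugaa
miR-182-5p, in Mirc35hg: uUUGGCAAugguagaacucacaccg
miR-96-5p, in Mirc35hg: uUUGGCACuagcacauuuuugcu
miR-183-5p, in Mirc35hg: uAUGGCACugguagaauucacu
miR-9-5p, in C130071C03Rik: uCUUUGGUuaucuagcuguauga
miR-193b-3p, in Gm32817: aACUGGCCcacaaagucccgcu
miR-365-3p, in Gm32817: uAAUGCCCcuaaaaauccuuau
miR-199a-5p, in Dnm3os: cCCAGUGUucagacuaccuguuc
miR-214-3p, in Dnm3os: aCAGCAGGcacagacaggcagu
miR-200b-3p, in Gm13648: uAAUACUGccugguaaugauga
miR-429-3p, in Gm13648: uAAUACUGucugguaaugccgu
MiR-200b-3p and miR-429-3p have the same seed, AAUACUG, and miR-9-5p is encoded by C130071C03Rik and again by Mir9-3hg. The peaks over the start of E130102H24Rik, the host of miR-101a, held 378 tags in Sun-/- cells and 687 in wild-type cells. Mirc35hg, the host of the sensory-organ cluster miR-183, miR-96 and miR-182, had 561 tags in Sun-/- cells and 533 in wild-type cells. The start shared by Gm32817 and Gm53058, upstream of miR-193b and miR-365, had 278 tags in Sun-/- cells and 388 in wild-type cells. C130071C03Rik had 44 tags in Sun-/- cells and 86 in wild-type cells, and the start of Mir9-3hg had 120 tags in Sun-/- cells and 107 in wild-type cells. The peaks found in one genotype held 35 tags at Dnm3os (miR-199a and miR-214) and 41 at Gm10505 in Sun-/- cells, and 25 at Gm13648 (miR-200a, miR-200b and miR-429, known from epithelial cells) and 23 at Mirg in wild-type cells. Among the hosts marked in both genotypes, the smallest peaks were at Ftx, the host of miR-374b and miR-421. Ftx had 24 tags in Sun-/- cells, below the 2 hosts marked there alone. In wild-type cells it had 40 tags, above the 2 hosts marked there alone. The hosts marked in both genotypes ranged up to 561 tags in Sun-/- cells and 926 in wild-type cells. 2900076A07Rik, the host of miR-1839, had 2 Sun-/- peaks of 40 and 39 tags and a single wild-type peak of 166.

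The lncRNA peaks were smaller than H3K4me3 peaks in general. The median lncRNA peak held 59 tags in Sun-/- cells and 63 in wild-type cells, whereas the median peak at a protein-coding gene end held 163 tags in Sun-/- cells and 228 in wild-type cells. Over all H3K4me3 peaks the median was 79 tags in Sun-/- cells and 89 in wild-type cells. The median width was 914 bp in Sun-/- cells and 926 bp in wild-type cells, and over all peaks 1006 bp in Sun-/- cells and 1050 bp in wild-type cells. The smallest lncRNA peaks had 18 tags in Sun-/- cells and 17 in wild-type cells, and the largest 3275 in Sun-/- cells and 3123 in wild-type cells. Of the members, 364 Sun-/- and 443 wild-type peaks lay inside the body of a protein-coding gene, away from its ends. At the edge of the rule, the 189 Sun-/- peaks lying more than 500 and up to 1000 bp from a lncRNA gene end had a median of 43 tags, and the 160 lying more than 1000 and up to 1500 bp away, which the rule left out, 42.5 tags. In wild-type cells the same zones held 237 peaks with a median of 45 tags and 198 with 47. Toward protein-coding genes, Sun-/- peaks more than 5000 and up to 6000 bp from an end numbered 44 with a median of 87.5 tags, and those more than 4000 and up to 5000 bp away, which the rule left out, 58 with 86 tags. In wild-type cells these zones held 49 peaks with a median of 127 tags and 60 with 75.5.

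Most lncRNA peaks were found in both genotypes. Of the Sun-/- lncRNA peaks, 80.5% (78.1 to 82.7%, 928 of 1153, Clopper-Pearson) overlapped a wild-type H3K4me3 peak by at least 1 bp, and of the wild-type ones 67.7% (65.1 to 70.1%, 923 of 1364) overlapped a Sun-/- peak. That left 225 Sun-/- peaks (19.5%) without a partner, with 19.8% of all Sun-/- H3K4me3 peaks without one, so the members' share is that of the library. It left 441 wild-type peaks (32.3%) without a partner, with 28.1% of all wild-type peaks without one, so the members' share lies 4 points above that of the library. At protein-coding gene ends 96.7% of Sun-/- peaks and 92.0% of wild-type peaks had a partner.

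Whether a lncRNA peak had a partner followed its tag count. In Sun-/- cells the share without a partner was 55.6% of 216 lncRNA peaks under 30 tags, 24.3% of 276 peaks of 30 to 49 tags, 10.3% of 310 peaks of 50 to 99 tags, 1.90% of 211 peaks of 100 to under 200 tags and 1.43% of 140 peaks of 200 or more. In wild-type cells it was 71.9% of 185, 56.5% of 345, 27.6% of 348, 4.30% of 256 and 2.61% of 230 peaks in the same bins. Over all H3K4me3 peaks these shares were 63.1%, 30.8%, 10.0%, 2.01% and 0.70% in Sun-/- cells, and 75.5%, 53.4%, 27.2%, 7.45% and 1.09% in wild-type cells. In each bin of either genotype the interval of the lncRNA peaks met that of all peaks, so at a given tag count their shares were not told apart from those of the library. Peaks at protein-coding ends had lower shares in the bins up to 99 tags of Sun-/- cells, at 38.5%, 14.1% and 3.63%, with intervals that did not meet those of the lncRNA peaks. In wild-type cells their shares were 73.2%, 47.9% and 18.6%, and their intervals met those of the lncRNA peaks under 50 tags and not at 50 to 99 tags. From 100 tags on the intervals met, except at 200 or more tags in wild-type cells. There the share was 0.64% (0.47 to 0.84%) at protein-coding ends and 2.61% (0.96 to 5.59%) in lncRNA peaks.

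**Figure D1:**
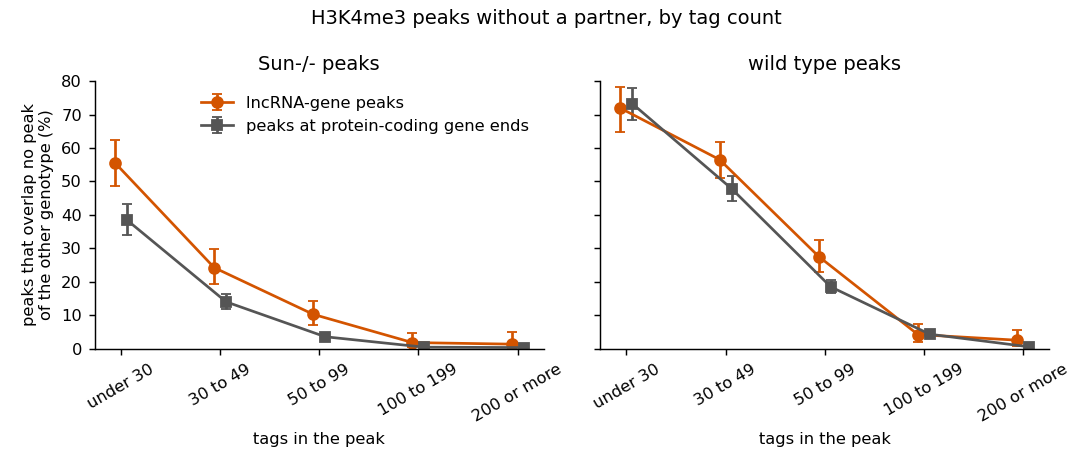
Share of H3K4me3 peaks that overlap no peak of the other genotype (vertical axis, percent) by the tags in the peak (horizontal axis), for Sun-/- peaks on the left and wild-type peaks on the right. Circles are lncRNA-gene peaks, squares are peaks at protein-coding gene ends, and bars are 95% Clopper-Pearson intervals; both shares are under 5% from 100 tags on.

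Counted by gene, 1525 of the 12736 annotated lncRNA genes had a member peak, 921 of them in both genotypes, 202 in Sun-/- cells alone and 402 in wild-type cells alone. Of the 202 genes, 16 had a wild-type peak at an end that failed the rule on protein-coding distance, and of the 402 genes 23 had such a Sun-/- peak, so these genes are not unmarked in the other genotype. A member peak was found at 101 of 510 lncRNA genes with a descriptive name (19.8%), 238 of 1788 with a Rik name (13.3%), 1155 of 10128 with a Gm number (11.4%) and 31 of 310 with a LOC number (10.0%). Where the RefSeq promoter table gave a strand, 66.5% of 893 Sun-/- peaks lay at the 5′ end of the gene, 10.6% at both a 5′ and a 3′ end, and 22.8% at the 3′ end. In wild-type cells the shares were 65.4%, 10.1% and 24.4% of 1065 peaks. Peaks at 3′ ends were smaller, with medians of 44 tags in Sun-/- cells and 51 in wild-type cells, and those at 5′ ends had medians of 63.5 tags in Sun-/- cells and 65 in wild-type cells. The share of 3′ end peaks with a partner was 70.1% (63.3 to 76.3%) in Sun-/- cells and 58.1% (51.8 to 64.1%) in wild-type cells. At 5′ ends it was 84.8% (81.7 to 87.6%) in Sun-/- cells and 69.9% (66.3 to 73.3%) in wild-type cells, above the 3′ intervals in both genotypes.

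Most peak summits lay downstream of the lncRNA start. The median summit was 143 bp into the gene in 689 Sun-/- peaks at a 5′ end and 150 bp in 805 wild-type peaks, and 61.4% of the Sun-/- and 65.1% of the wild-type summits lay downstream. The 100 bp bin with the most summits was the one from 100 to 200 bp into the gene in both genotypes, with 74 peaks in Sun-/- cells and 102 in wild-type cells.

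**Figure D2:**
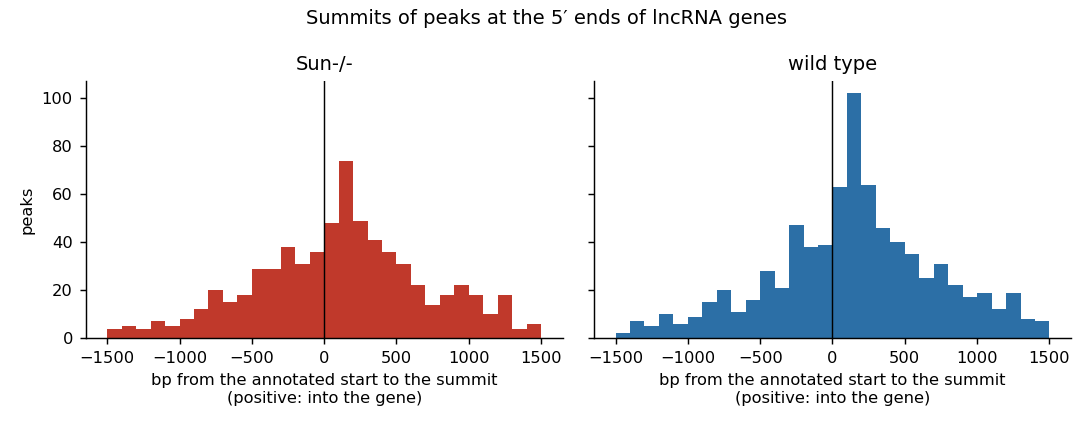
Number of H3K4me3 peaks (vertical axis) by the distance of their summit from the annotated start of the lncRNA gene in 100 bp bins (horizontal axis, positive into the gene), Sun-/- on the left and wild type on the right. The highest bar in each panel is at 100 to 200 bp, with 74 and 102 peaks.

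Promoters of lncRNA genes with a member peak in both genotypes were richer in CpG than those of genes without one. A gene counted as marked if a member peak lay at either of its ends, so the peak need not lie at the promoter. A member peak lay at the start in both genotypes for 574 genes. Genes marked in neither had no member peak, though a peak that failed the rule may lie there. Of the lncRNA genes, 7239 had a RefSeq promoter whose start was more than 5000 bp from every protein-coding end. Chromosome 18, with 38 Sun-/- and 44 wild-type member peaks, was not used in the counts by promoter, strand, gene end or microRNA. The median ratio of observed to expected CpGs was 0.37 in 690 promoters of genes marked in both genotypes, 0.25 in 134 marked in Sun-/- cells alone, 0.29 in 291 marked in wild-type cells alone and 0.20 in 6124 marked in neither. The share at or above 0.6 was 29.0% (25.6 to 32.5%) in both, 7.46% (3.64 to 13.3%) in Sun-/- alone, 10.7% (7.35 to 14.8%) in wild type alone and 3.15% (2.73 to 3.62%) in neither. The intervals of the genes marked in 1 genotype overlapped each other and lay below that of the genes marked in both. CpG content also went with the size of the peak. The median ratio was 0.67 in promoters with at least 200 tags and 0.29 in those under 50 tags in Sun-/- cells, and 0.62 and 0.31 in wild-type cells for the same size classes. Spearman's rho between tags and the CpG ratio was 0.31 across 679 genes in Sun-/- cells and 0.31 across 794 genes in wild-type cells, given as a description, since the genes of a library share its depth and preparation. The GC box GGGCGG, the core of Sp1 sites, was present on either strand in 32.9% of promoters marked in both, 11.9% in Sun-/- alone, 13.4% in wild type alone, 6.42% in neither and 35.7% of all promoters of the table. Each GC box holds a CpG and so is not independent of the CpG count. The letters TATAAA ran the other way, at 11.3% of promoters marked in both and 18.7% of those marked in neither, with 13.6% of all promoters.

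**Figure D3:**
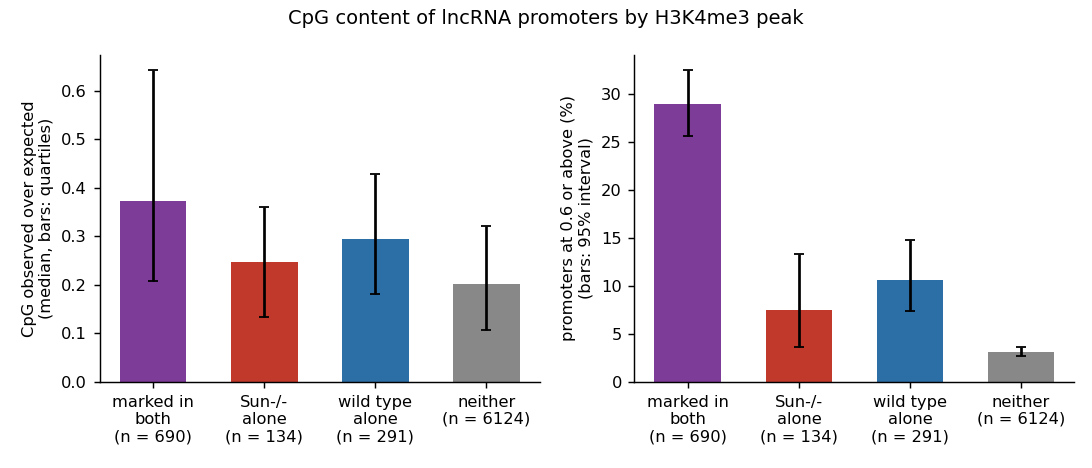
Observed over expected CpG in 300 bp promoters of lncRNA genes, by the genotype in which the gene had a member peak at either end. The left panel gives the median with quartiles, the right panel the percent of promoters at 0.6 or above with 95% intervals. Promoters of genes marked in both genotypes stand highest, at 0.37 and 29.0%. Those of genes without a member peak stand lowest, at 0.20 and 3.15%.

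At lncRNA genes with a peak in both genotypes, H3K4me3 density differed little between Sun-/- and wild-type cells. Peaks were compared as pairs if each overlapped the other, and no further peak, over at least 50% of its width and at least 50 tags were present in 1 library. This gave 636 lncRNA pairs among 17114 pairs in all. Before scaling, the median of all pairs had a log2 ratio of tags per kb of -0.34, Sun-/- over wild type, and all ratios below are relative to that median unless stated. The lncRNA pairs had a median log2 ratio of 0.02 and an SD of 0.24 between pairs, where counting alone gives 0.21. Over all pairs the median is 0 by construction, with an SD of 0.24 where counting alone gives 0.19. Of the 636, 341 lay above 0 and 295 below, and 467 lay within 0.25 of it. None was at least 2-fold denser in Sun-/- cells, with 0.0409% of all pairs past that fold, and none at least 2-fold less dense, with 0.0117% of all pairs past it. At 1.5-fold, 10 of the 636 lncRNA pairs were denser, with 1.58% of all pairs past that fold, and 5 less dense, with 0.66% of all pairs past it. The lowest ratio was -0.73 and the highest 0.86. If the libraries are scaled to their filtered tags, the medians were -0.17 for lncRNA pairs and -0.19 for all pairs, so the sign of a median near 0 depends on the scaling. Peak widths were called separately in each library, and 422 lncRNA pairs (66.4%) were narrower in Sun-/- cells and 214 wider, with 67.5% of all pairs narrower. By tags per peak, without the width, 13 of the 636 lncRNA pairs were at least 2-fold higher in Sun-/- cells, with 1.47% of all pairs past that fold. In the other direction 2 were at least 2-fold lower, with 0.14% of all pairs past it. In 211 of the 636 pairs the ratio of tags per peak, centred in the same way, had the sign opposite to that of the density ratio.

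**Figure D4:**
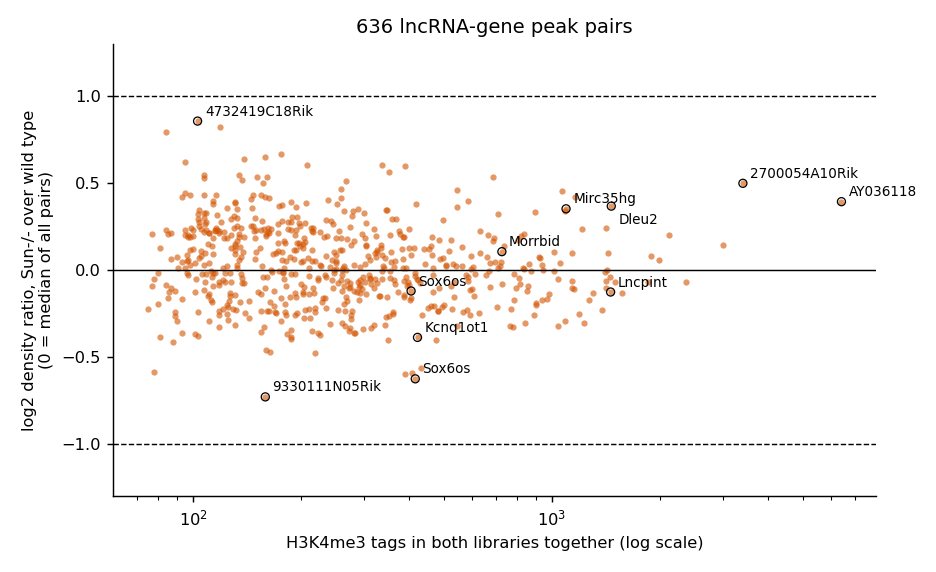
Log2 ratio of H3K4me3 tags per kb, Sun-/- over wild type and relative to the median of all pairs (vertical axis), by the tags of both libraries together (horizontal axis, log scale), for 636 lncRNA-gene pairs, with named genes circled (Sox6os has 2 pairs). Dashed lines mark 2-fold; every point lies between them, from -0.73 to 0.86, and the spread narrows as tags increase apart from 2700054A10Rik and AY036118 on the right.

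The pairs with the most tags were led by 2 loci that also held the most H3K9me3. AY036118, at chr17:39842818-39849047, had 3275 H3K4me3 tags in Sun-/- cells and 3123 in wild-type cells, and a log2 ratio of 0.39 (0.32 to 0.46). Its H3K9me3 peaks held 4328 tags in Sun-/- cells and 4111 in wild-type cells, more than its H3K4me3 peaks. The RefSeq table places an 18S ribosomal RNA gene, Rn18s-rs5, at the same position, so tags of a repeated gene can be placed here and the values are uncertain. 2700054A10Rik, at chr17:13550406-13553339, had 1638 H3K4me3 tags in Sun-/- cells and 1763 in wild-type cells, a ratio of 0.50 (0.40 to 0.60), and 2279 H3K9me3 tags in Sun-/- cells and 2256 in wild-type cells. Unc45bos, inside Unc45b, had 1460 H3K4me3 tags in Sun-/- cells and 1542 in wild-type cells, with a ratio of 0.14 (0.04 to 0.25). Gm7854, inside Cpeb2, had 946 tags in Sun-/- cells and 1171 in wild-type cells, with a ratio of 0.20 (0.07 to 0.32). The other 6 of the 10 pairs with the most tags lay inside protein-coding genes too, with ratios between -0.13 and 0.08. They were 1700016A09Rik and Gm51556 in Gse1, Gm20652 in Arhgef2, Gm30189 in the imprinted Gnas, Gm15327 in Map3k1 and 4930405A21Rik in Dlgap4.

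The ends of the range were taken among pairs with at least 100 tags in total. The highest ratio was at 4732419C18Rik, with 44 tags over 656 bp in Sun-/- cells and 59 tags over 1259 bp in wild-type cells, a log2 density ratio of 0.86 (0.26 to 1.44) and of 0.06 by tags per peak. 4930550C17Rik had 72 tags in Sun-/- cells and 47 in wild-type cells, with 0.82 (0.27 to 1.38) by density and 1.09 by tags. Gm52550, inside Ptges, the gene of the inducible prostaglandin E synthase, had 222 tags over 2994 bp in Sun-/- cells and 114 over 1850 bp in wild-type cells, with 0.61 (0.27 to 0.95) by density and 1.44 by tags. Gm32128, Gm30136, Gm40645, Gm32600 and Gm33272 followed between 0.60 and 0.67. The lowest ratio was at 9330111N05Rik, with 53 tags in Sun-/- cells and 106 in wild-type cells, -0.73 (-1.23 to -0.24) by density and -0.52 by tags. Sox6os, inside Sox6, had 207 tags over 2148 bp in Sun-/- cells and 209 over 1111 bp in wild-type cells, so its ratio of -0.63 (-0.91 to -0.34) by density was 0.46 by tags per peak. Gm14488, Gm34507, Gm1976, Gm51663, 1700096K18Rik and Gm11963 followed between -0.60 and -0.46. Of these 8 lowest pairs, 4 kept a negative ratio by tags per peak.

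Among lncRNAs with a described role, 115 listed genes were annotated, and 38 of them had a member peak. The mark was present in both genotypes at 33, in Sun-/- cells alone at Dnm3os and Neat1, and in wild-type cells alone at Gm15708, Mirg and Mirt1. A further 42 had a peak that failed the rule because of a nearby protein-coding end, and 35 had no peak within 1000 bp. The 32 listed pairs had a median log2 ratio of -0.04, with 15 above 0 and 17 below, against 0.02 over all lncRNA pairs, and none passed 1.5-fold.

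**Figure D5:**
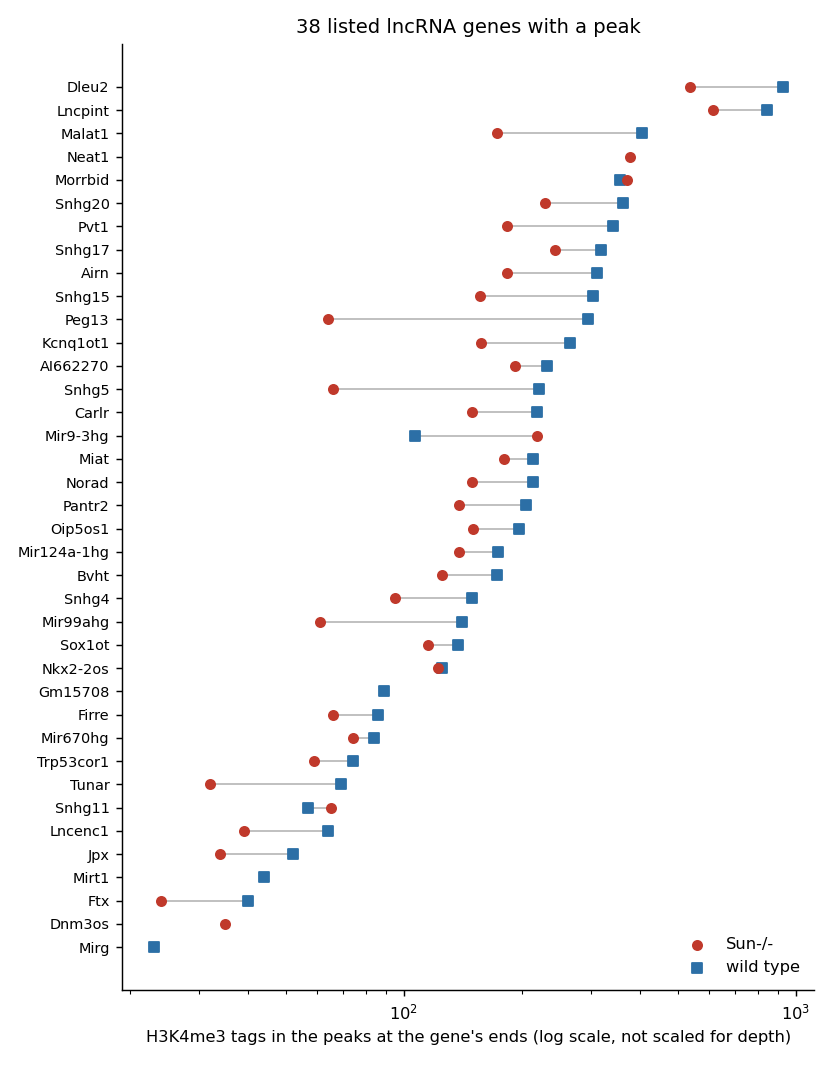
H3K4me3 tags summed over the member peaks of each of the 38 listed lncRNA genes (horizontal axis, log scale, as counted in libraries of unequal depth), with circles for Sun-/- and squares for wild type. Most squares stand to the right of their circle; the sum for Mir9-3hg in Sun-/- cells includes a 3′ peak of 98 tags that met the rule in that genotype alone.

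Nuclear and architectural lncRNAs had a member peak at 11 of 15 genes, and 7 of their 9 pairs lay below 0, with a median of -0.13, where 295 of the 636 lncRNA pairs did. By tags per peak 5 of the 9 lay below 0. Malat1, an abundant RNA of nuclear speckles, had 173 tags in Sun-/- cells and 309 in wild-type cells, with a ratio of -0.24 (-0.51 to 0.04), and a second wild-type peak of 96 tags had no partner. Neat1, the scaffold of paraspeckles, had a Sun-/- peak of 378 tags at chr19:5842045-5845596 without a partner, and 1310 bp away a wild-type peak of 526 tags at chr19:5846906-5851259 that failed the rule. The protein-coding end nearest to the Sun-/- peak was that of Frmd8, 5378 bp away. Wild-type cells had no member peak at Neat1, and whether the called borders account for this was not tested. Lncpint, a p53-induced lncRNA, had 615 tags in Sun-/- cells and 841 in wild-type cells (-0.13, from -0.28 to 0.03). Pvt1, the neighbour of Myc, had 183 and 341 tags in Sun-/- and wild-type cells (-0.09, from -0.36 to 0.17), and Norad, which sequesters Pumilio proteins, 149 and 213 tags (0.02, from -0.29 to 0.33). On the X chromosome, Firre had 66 tags in Sun-/- cells and 86 in wild-type cells, and the X-inactivation centre genes Jpx and Ftx had 34 and 24 tags in Sun-/- cells and 52 and 40 in wild-type cells. Xist, the RNA that coats the inactive X chromosome, had no peak within 1000 bp of an end, with the nearest 10228 bp away in Sun-/- cells and 10202 bp away in wild-type cells.

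Imprinted lncRNAs had a member peak at 5 of 15 genes, and H19, Meg3 and Rian had none. Kcnq1ot1, which silences genes of its imprinted domain in cis, had 157 tags in Sun-/- cells and 265 in wild-type cells over peaks of 1898 and 1936 bp. Its ratio of -0.39 (-0.68 to -0.10) was the lowest of the listed pairs by density. By tags per peak it was -0.28, and other listed pairs were lower, down to -0.73 at Mir99ahg. Airn, which silences Igf2r, had 183 tags in Sun-/- cells and 311 in wild-type cells, with a ratio of -0.21 (-0.49 to 0.05). Snhg11, a neuronal lncRNA gene, is on both the imprinted and the snoRNA host lists, and its imprinting was not tested. It had 65 tags in Sun-/- cells and 57 in wild-type cells, with a ratio of 0.18 (-0.35 to 0.72) by density and 0.67 by tags. Peg13 had 64 tags in a single Sun-/- peak and 145 and 150 tags in 2 wild-type peaks.

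Immune and macrophage lncRNAs had a member peak at 9 of 25 genes. Morrbid, whose promoter is printed above, had a ratio of 0.11 (-0.11 to 0.32), and Carlr had 149 tags in Sun-/- cells and 219 in wild-type cells (0.29, from -0.02 to 0.60). Gm15708 had wild-type peaks of 35 and 54 tags and no Sun-/- member peak. Besides Mir155hg, 9 genes of this list had no peak within 1000 bp, among them Ifngas1, Mirt2 and U90926. Of the microRNA hosts on the lists, Dleu2 had the largest ratio, 0.37 (0.21 to 0.52), with a Sun-/- peak of 3107 bp inside a wild-type peak of 5474 bp. By tags per peak its ratio was -0.31, so its direction depends on the called width. E130102H24Rik and Zeb2os, which are outside the lists and were chosen after their values were seen, had the same pattern, at 0.45 and 0.42 by density and -0.38 and -0.33 by tags. Mirc35hg, chosen in the same way, had 0.35 (0.18 to 0.53) by density and 0.55 by tags, with widths of 4373 bp in Sun-/- cells and 4192 bp in wild-type cells. Mir17hg, the host of the miR-17 to miR-92 cluster, lay just outside the rule, with peaks of 589 tags in Sun-/- cells 1477 bp from its end and 755 tags in wild-type cells 1671 bp away.

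The snoRNA host genes had a member peak at 6 of 20 genes, each in both genotypes, and 13 more had a peak near a protein-coding end. Their 6 pairs had a median ratio of 0.04. Snhg17 had 243 tags in Sun-/- cells and 318 in wild-type cells, with a ratio of 0.02 (-0.22 to 0.27), and Snhg20 had 229 and 362 tags in Sun-/- and wild-type cells, with -0.12 (-0.36 to 0.13). Snhg15 had a ratio of 0.14 by density and -0.48 by tags, with a Sun-/- peak of 1522 bp and a wild-type peak of 2577 bp. Developmental lncRNAs had a member peak at 5 of 31 genes, and 18 more had a peak near a protein-coding end. Sox1ot, which overlaps Sox1, had 115 tags in Sun-/- cells and 137 in wild-type cells (0.38, from 0.01 to 0.75), and Pantr2 had 138 and 205 tags (-0.31, from -0.64 to 0.00). The p53 and stress list had 3 of 10 genes with a member peak, among them Trp53cor1 with 59 tags in Sun-/- cells and 74 in wild-type cells (0.30, from -0.22 to 0.81).

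The peaks without a partner were mostly small, with medians of 29 tags in Sun-/- cells and 36 in wild-type cells, and 6 of 225 Sun-/- and 17 of 441 wild-type peaks held at least 100 tags. In 22 Sun-/- and 42 wild-type cases the nearest peak of the other genotype was within 1000 bp, and in 123 Sun-/- and 241 wild-type cases it was more than 10000 bp away. The largest Sun-/- peaks after Neat1 were at Gm16315 in Pip5k1c (299 tags), Gm12984 (159 tags), Gm36518 (129 tags), Gm36301 (120 tags), 2310001H17Rik (105 tags), Gm17762 (95 tags) and Gm39151 in Adgra2 (95 tags). The largest wild-type peak was at Gm52742 inside Akna, with 894 tags over 6848 bp. The others were at Gm52186 in Cyth4 (345 tags), Gm32822 in Ptprs (323 tags), Gm21057 in Zfp710 (321 tags), Gm34065 in Septin9 (258 tags), Gm39265 (217 tags), Gm13840 in Pxn (189 tags) and Gm35196 (186 tags). The scores of these wild-type peaks, minus 10 times log10 of the authors' p-value, ran from 51.1 to 180, and those of the Sun-/- peaks from 53.1 to 132, with a limit of 50 set by the p-value cutoff. Of the peaks without a partner, 55 of 225 Sun-/- peaks (24.4%) and 138 of 441 wild-type peaks (31.3%) lay inside protein-coding bodies, with 31.6% of all Sun-/- members and 32.5% of all wild-type members there. The nearest Sun-/- peak to Gm13840 was 12 bp away with 161 tags, so that locus is marked in both genotypes. Other large peaks also had a neighbour in the other genotype. The nearest Sun-/- peak was 2736 bp from Gm52742 (365 tags), 2887 bp from Gm34065 (580 tags) and 3370 bp from Gm52186 (626 tags). For Gm36518 the nearest wild-type peak was 585 bp away (78 tags). At Gm39265 and Gm16315 it was farther, at 14809 and 12271 bp. The part of called borders in these peaks was not tested.

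H3K9me3, a mark of silenced chromatin, was found at a small share of lncRNA H3K4me3 peaks. In Sun-/- cells 136 of 1153 peaks (11.8%, from 9.99 to 13.8%) overlapped an H3K9me3 peak of the same genotype, with 18.8% of all Sun-/- H3K4me3 peaks doing so. In wild-type cells 80 of 1364 (5.87%, from 4.68 to 7.25%) did, with 12.6% of all wild-type peaks. In both genotypes the share was below that of the library. The share was highest at the largest peaks, at 34.3% of Sun-/- and 17.8% of wild-type peaks of 200 or more tags. At protein-coding ends of that size it was 38.8% in Sun-/- cells and 24.2% in wild-type cells. The H3K9me3 peaks were called without a control library. Fragment lengths estimated by the caller were 71 bp in Sun-/- and 66 bp in wild-type H3K9me3 libraries, against 149 and 142 bp for H3K4me3. The part of background in this overlap was not tested. In 44 pairs an H3K9me3 peak was present in both genotypes. In 8 of these both libraries held more H3K9me3 than H3K4me3 tags, namely AY036118, 2700054A10Rik, Gm33272, Gm32506, Gm12223, Gm40034, Gm41530 and Gm30136. All 8 had an H3K4me3 ratio above 0, from 0.16 to 0.65 with a median of 0.38, against a median of 0.10 in the other 36 pairs. With scaling to filtered tags, 6 of the 8 lay above 0, and Gm40034 and Gm12223 below. These 8 were singled out after their values were seen, and the part of either mark's background in their ratios was not tested. Among the other pairs, Unc45bos had 450 H3K9me3 tags in Sun-/- cells and 346 in wild-type cells. The next by H3K4me3 tags had far fewer, with 43 H3K9me3 tags at Gm7854 in Sun-/- cells and 75 in wild-type cells, and 57 at Gm30189 in Sun-/- cells and 26 in wild-type cells. Gm15327 had 16 in Sun-/- cells and 53 in wild-type cells, 1700052K11Rik 63 in Sun-/- cells and 72 in wild-type cells, and Gm12925 43 in Sun-/- cells and 41 in wild-type cells. Mexis, an LXR-induced lncRNA of mouse macrophages that was also chosen after its values were seen, had an H3K4me3 pair of 77 and 93 tags in Sun-/- and wild-type cells beside 40 and 24 H3K9me3 tags. Chaserr, next to Chd2 and chosen likewise, had 260 H3K4me3 and 33 H3K9me3 tags in Sun-/- cells, and 342 and 16 in wild-type cells.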

How the data were processed

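H3K4me3 and H3K9me3 ChIP-seq was available for 1 Sun-/- and 1 wild-type library each. CASAVA 1.4, Bowtie 0.12.8, MACS 1.4.2, DiffBind and mm10 are named, without roles, per the submitters' processing notes. Per the file headers, the authors called peaks in each library with MACS 1.4.2, without a control library, at a p-value limit of 1e-05, with at most 1 tag per position and a local background over up to 10000 bp. The deposited values per peak are tag counts, a score (minus 10 times log10 of the p-value), a fold enrichment (a linear ratio), and positions and widths in bp (other). The score and the enrichment served only to describe and filter peaks.

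Gene ends and biotypes were read from RefSeq (GRCm38.p6), and strands and sequences from its promoter and microRNA tables of that build. The computation used pandas 2.3.3 with numpy 2.4.6 under Python 3.11.15, intervals used scipy 1.17.1 and plots matplotlib 3.10.9. Pairing was run on a simulated list that kept wild-type peak positions and widths, redrew tags and dropped some peaks. It therefore did not test pairing where called borders differ. Ratio intervals are exact conditional binomial intervals, and shares have Clopper-Pearson intervals. Named pairs are the 10 with the most tags and the 8 highest and 8 lowest ratios of at least 100 tags in total. Also named are the 8 largest unpartnered peaks per genotype, listed genes with a member peak, and up to 8 pairs with H3K9me3. Members and lists were chosen with earlier results of these data known. Alternatives covered windows, distances, scores, overlaps, scalings and minimum tags.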

Additional observations from a re-analysis of the deposited data

How the results depend on the processing

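Of 88 alternative values of the main results, 69 stayed within the counting interval or within 1.5 times the main count. The share of peaks with a partner moved to 92.3% in Sun-/- cells where both lists were limited to scores of 100 or more, and to 76.2% in Sun-/- and 64.1% in wild-type cells with a 2500 bp window. In wild-type cells it moved to 70.3% with a 500 bp window, 72.3% with equal numbers of peaks and 64.4% with an overlap of 50% of the peak. At the score limit the genes counted were 562 in both genotypes, 50 in Sun-/- cells alone and 265 in wild-type cells alone. The median pair ratio was -0.17 where filtered tags set the scale and -0.068 where library totals did. By tags per peak, 13 lncRNA pairs were at least 2-fold higher and 2 at least 2-fold lower in Sun-/- cells, where density gave 0 and 0. Among all pairs, 1.47% were past that fold upward and 0.14% downward. H3K9me3 overlap was 4.42% in Sun-/- and 2.57% in wild-type cells at an H3K9me3 score of at least 100, and 9.38% and 4.45% outside protein-coding bodies. The share of CpG-rich promoters among genes marked in both genotypes was 34.0% with a peak at the start and 41.2% at a peak score of at least 100. The cause was not tested. Of the 26 named pairs, 3 changed sign with scaling to filtered tags and 9 by tags per peak. Leaving out AY036118 and 2700054A10Rik, an alternative chosen after seeing the data, moved no main result. No paired analysis was possible because each genotype has 1 library per mark and the labels give no replicate numbers, so no replicate could be left out either. The depth limits statements on peaks under about 50 tags, of which many had no partner.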
